A study of Mus musculus with 20 samples.

Results

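The neurotrophin ligand genes Bdnf and Ntf3 and the receptor genes Ntrk2, Ntrk3, Ngfr and Sort1 were followed in RNA of a mouse brain region, the bed nucleus of stria terminalis (BNST). These 6 genes were taken by name, with symbols assigned from Ensembl identifiers, out of 19214 genes counted, and all 6 were among the 14884 genes with enough reads to be tested. The BNST, a forebrain region between the amygdala, the hypothalamus and the brain stem, was sampled from susceptible females (FS), female controls (FC), susceptible males (MS) and male controls (MC), with 5 libraries in each group. Susceptible mice come from a model of anxiety in which animals were restrained repeatedly (chronic restraint stress), and the labels do not say how susceptibility was decided. Strain, age and the length of the stress are likewise not given in the labels, nor is it stated that each library came from a separate animal, so p-values measure the spread between libraries, which may be technical. Polyadenylated RNA was sequenced as paired reads, and the deposited values are read counts per gene.

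Neurotrophins are secreted growth factors that support the survival, wiring and plasticity of neurons. Each is made as a precursor, and the cleaved form acts through a Trk receptor tyrosine kinase, TrkB for brain-derived neurotrophic factor (BDNF) and TrkC for neurotrophin 3, whereas the precursor binds the p75 receptor together with sortilin. In the forebrain BDNF and TrkB are studied for their part in synaptic plasticity and responses to stress, and p75 is a classic marker of basal forebrain cholinergic neurons.

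Promoter sequences from RefSeq (build GRCm38.p6) were matched by symbol for 4 of the 6 genes, as windows of 300 bases that end just after an annotated start site: 7 windows for Bdnf, 2 for Ntf3, and 1 each for Ntrk2 and Ngfr. The windows were searched on both strands for the cyclic AMP response element (CRE) TGACGTCA, for its variant TCACGTCA or the reverse complement TGACGTGA, and for the E-box CACGTG. The full CRE was in none of the 11 windows, and among all 32851 mouse windows it was in 1.79%. The variant was in 1 window, Bdnf window 3, at position -38 from the start site, against 0.441% of all windows. The E-box was in 1 window, Ntf3 window 1, at position -231, against 7.15% of all windows. A match describes letters and is not a measured binding site. The windows below are shown because they are those 2 windows with a match, in capitals, and the window of Ngfr, the receptor gene whose level varied most among libraries, which held none of these motifs. Bdnf window 3 lies at chr2:109692186-109692485 on the plus strand, Ntf3 window 1 at chr6:126166695-126166994 on the minus strand, and the Ngfr window at chr11:95587649-95587948 on the minus strand, each printed 5′ to 3′ along its gene.
Bdnf window 3: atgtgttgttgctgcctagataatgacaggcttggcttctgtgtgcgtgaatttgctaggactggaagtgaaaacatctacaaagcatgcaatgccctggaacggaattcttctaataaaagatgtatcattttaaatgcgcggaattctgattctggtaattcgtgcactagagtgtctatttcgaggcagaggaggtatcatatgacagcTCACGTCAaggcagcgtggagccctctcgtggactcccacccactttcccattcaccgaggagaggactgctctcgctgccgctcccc
Ntf3 window 1: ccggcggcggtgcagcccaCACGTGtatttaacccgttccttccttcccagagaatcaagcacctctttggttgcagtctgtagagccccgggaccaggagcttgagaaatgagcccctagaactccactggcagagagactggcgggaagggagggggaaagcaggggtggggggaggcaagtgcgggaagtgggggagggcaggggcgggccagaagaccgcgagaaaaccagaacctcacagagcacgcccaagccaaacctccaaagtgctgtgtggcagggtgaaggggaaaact
Ngfr window: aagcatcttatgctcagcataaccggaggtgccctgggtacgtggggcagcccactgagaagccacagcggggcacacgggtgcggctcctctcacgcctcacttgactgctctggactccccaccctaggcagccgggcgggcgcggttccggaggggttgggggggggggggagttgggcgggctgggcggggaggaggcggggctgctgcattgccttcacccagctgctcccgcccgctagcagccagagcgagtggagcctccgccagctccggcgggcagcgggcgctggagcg
G and C made up 48.7% of the Bdnf window, 61% of the Ntf3 window and 71.7% of the Ngfr window, and the median over all windows was 52.7%. Bdnf has several promoters, and a count per gene sums their transcripts, so use of the windows cannot be told apart here.

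Total counts ran from 14637636 to 17862840 per library. The BNST is rich in GABA neurons, and Gad1, Gad2 and Slc32a1, which make and load GABA, were abundant in every library, Slc32a1 at 150 to 348 CPM (counts scaled to library size) and Gad1 at 457 to 893 CPM. Libraries differed in RNA of neighbouring structures: Ttr, a choroid plexus gene, passed 100 CPM in 2 FS, 2 FC, 2 MS and 1 MC libraries, and Pmch, a lateral hypothalamic peptide gene, passed 1 CPM in 1 FS, 3 FC, 1 MS and 0 MC libraries. No gene of the 13 marker lists examined was at 0 in all libraries. In bulk tissue fewer cells of a type and less RNA per cell cannot be told apart.

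The 6 genes ranged from barely counted to abundant. Per kilobase of exon, the mean over all 20 libraries was 47.5 CPM per kb for Sort1 and 44.2 CPM per kb for Ntrk2, then 7.03 for Ntrk3, 6.57 for Ngfr, 1.47 for Bdnf and 0.593 for Ntf3, all in CPM per kb. Lengths are unions of annotated exons, so these values understate genes with long exons that BNST transcripts do not use. Variation among libraries ran otherwise: the coefficient of variation of CPM over the 20 libraries was 65.7% for Ntf3, 50.8% for Bdnf, 43.5% for Ngfr, 16.7% for Sort1, 11% for Ntrk3 and 8.61% for Ntrk2, against a median of 14.5% over tested genes. Ntf3, Bdnf and Ngfr thus varied more than 97.4%, 94.2% and 91.2% of tested genes, in that order, and Ntrk2 more than 17%.

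Bdnf encodes the TrkB ligand (ENSMUSG00000048482, chr2:109674700-109727007, plus strand, 11 annotated transcripts). It was at 6.55, 4.35, 7.90, 11 and 18.5 CPM in FS libraries 1 to 5, against 17.8, 10.9, 15, 6.10 and 15.1 CPM in FC libraries 1 to 5. In MS libraries 1 to 5 it was at 3.78, 10.6, 5.37, 5.8 and 10.7 CPM, against 7.44, 4.37, 3.22, 6.88 and 11.5 CPM in MC libraries 1 to 5. The highest library was a susceptible female and the lowest a male control, 4 of 5 FC libraries were at or above 10.9 CPM, and the ranges of all 4 groups overlapped. Means were 9.66 ± 5.49 CPM in FS and 13.0 ± 4.56 CPM in FC, and 7.24 ± 3.18 CPM in MS and 6.68 ± 3.22 CPM in MC (SD, n = 5 each), from 48 to 313 counts per library. The exons of Bdnf overlap an antisense gene, Gm45346, which was not analysed here, and whether counting used the strand is not given in the sources used here.

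Ntf3 encodes neurotrophin 3, the TrkC ligand (ENSMUSG00000049107, chr6:126101412-126166910, minus strand, 3 transcripts). Only 2 to 41 counts per library stood behind it. It was at 2.71, 1.31, 0.482, 0.167 and 1.37 CPM in FS libraries 1 to 5, against 0.965, 0.173, 1.52, 0.889 and 1.85 CPM in FC libraries 1 to 5. In MS libraries it was at 1.42, 1.12, 0.316, 0.432 and 1.25 CPM, against 0.122, 1.09, 0.335, 1.20 and 1.61 CPM in MC libraries. Every group held both low and high libraries, and the spread within FS alone reached from near the lowest to the highest value of the study. Means were 1.21 ± 0.988 CPM in FS, 1.08 ± 0.643 CPM in FC, 0.907 ± 0.5 CPM in MS and 0.872 ± 0.623 CPM in MC (SD, n = 5 each).

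Ntrk2 encodes TrkB, the BDNF receptor, as a full-length kinase made mainly by neurons and as truncated forms that astrocytes also make (ENSMUSG00000055254, chr13:58806569-59133970, plus strand, 10 transcripts). A count per gene does not separate these forms. It was at 759, 794, 773, 893 and 765 CPM in FS libraries 1 to 5, against 1048, 860, 885, 808 and 780 CPM in FC libraries 1 to 5. In MS libraries it was at 951, 803, 817, 920 and 935 CPM, against 887, 818, 845, 844 and 877 CPM in MC libraries. The highest library was FC1, 4 of 5 FS libraries lay at 759 to 794 CPM, and the groups overlapped. Means were 797 ± 55.5 CPM in FS and 876 ± 105 CPM in FC, and 885 ± 69.8 CPM in MS and 854 ± 27.8 CPM in MC (SD, n = 5 each).

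Ntrk3 encodes TrkC, which also exists with and without its kinase (ENSMUSG00000059146, chr7:78175959-78738012, minus strand, 20 transcripts). It was at 196, 249, 183, 205 and 250 CPM in FS libraries 1 to 5, against 197, 182, 183, 196 and 205 CPM in FC libraries 1 to 5. In MS libraries it was at 231, 217, 225, 252 and 192 CPM, against 213, 206, 199, 250 and 213 CPM in MC libraries. FC was the group with the tightest and lowest values, and each other group had at least 1 library at about 250 CPM. Means were 217 ± 31.3 CPM in FS and 193 ± 9.89 CPM in FC, and 223 ± 21.5 CPM in MS and 216 ± 19.5 CPM in MC (SD, n = 5 each).

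Ngfr encodes p75, the receptor that all neurotrophins and their precursors can bind (ENSMUSG00000000120, chr11:95568818-95587735, minus strand, 1 transcript). It was at 30.1, 20.3, 8.93, 32.1 and 2.82 CPM in FS libraries 1 to 5, against 5.96, 17.8, 20.2, 22.1 and 22.0 CPM in FC libraries 1 to 5. In MS libraries it was at 31.2, 28.9, 33.1, 43.4 and 16.3 CPM, against 21.5, 29.8, 27.5, 16.8 and 22.1 CPM in MC libraries. The 3 libraries under 10 CPM were all from females, FS5, FC1 and FS3, and the highest was MS4. Means were 18.8 ± 12.8 CPM in FS and 17.6 ± 6.74 CPM in FC, and 30.6 ± 9.7 CPM in MS and 23.5 ± 5.16 CPM in MC (SD, n = 5 each), from 39 to 703 counts per library.

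Sort1 encodes sortilin, which binds proneurotrophins with p75 and sorts proteins inside the cell (ENSMUSG00000068747, chr3:108284082-108361511, plus strand, 3 transcripts). It was at 242, 369, 345, 259 and 497 CPM in FS libraries 1 to 5, against 311, 347, 391, 316 and 425 CPM in FC libraries 1 to 5. In MS libraries it was at 332, 349, 364, 335 and 330 CPM, against 342, 428, 383, 441 and 391 CPM in MC libraries. Both the lowest and the highest library of the study were susceptible females, while MS libraries lay within a narrow band that the lowest MC library shared. Means were 343 ± 102 CPM in FS and 358 ± 49.3 CPM in FC, and 342 ± 14.4 CPM in MS and 397 ± 39.1 CPM in MC (SD, n = 5 each). The antisense gene Gm12523, not analysed here, overlaps its exons.

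**Figure D1:**
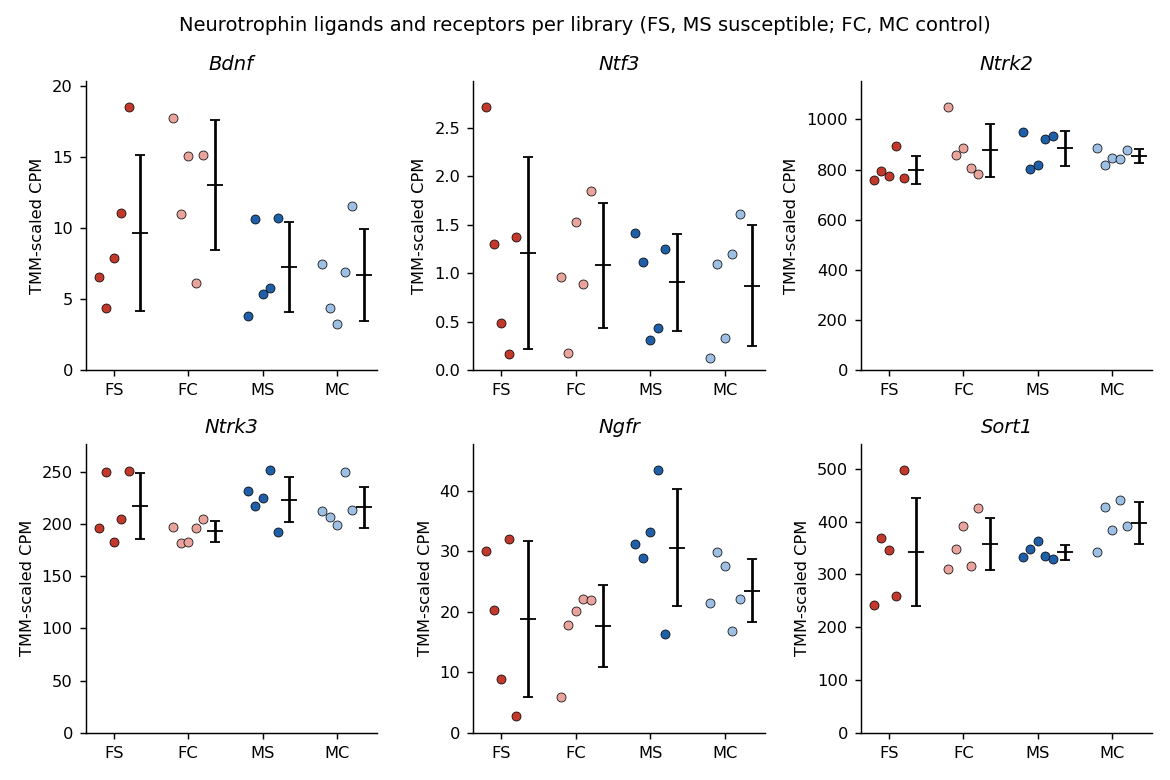
TMM-scaled CPM of each gene (y axis, from 0, with its own range in each panel) in the 5 libraries of each group (x axis: FS and MS susceptible, FC and MC control). Points are libraries in replicate order, and the bar beside them is the mean with its SD; Ntrk2 stays between 759 and 1048 CPM, while Ngfr runs from 2.82 to 43.4 CPM and Bdnf from 3.22 to 18.5 CPM.

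Ordered by mean, Bdnf ran FC, FS, MS and MC, Ntf3 ran FS, FC, MS and MC, Ntrk2 ran MS, FC, MC and FS, Ntrk3 ran MS, FS, MC and FC, Ngfr ran MS, MC, FS and FC, and Sort1 ran MC, FC, FS and MS, each from high to low. Of the 18 pairs of neighbours in these orders, all 18 overlapped in range, and in 16 the gap between means was under the larger SD of the pair. The exceptions were Ntrk2 between MC and FS, with a gap of 57.3 CPM against an SD of 55.5 CPM, and Ntrk3 between MC and FC, with a gap of 23.6 CPM against an SD of 19.5 CPM.

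The first question of the design is what stress changed in females. None of the 6 genes passed the test between FS and FC, and none of them separated the groups. By the quasi-likelihood test of edgeR, with p-values adjusted over all 14884 genes and a threshold of 0.05, 0 of 6 were called, against 0% of all genes, and 0 of 6 had an unadjusted p under 0.05, against 5.85%. Groups did not overlap for 0 of 6 genes, against 0.464% of all genes. The estimates nearest the threshold were those of the Trk receptor genes, in opposite directions: Ntrk2 had a log2 fold change of -0.14 ± 0.08 (SE), with a 95% interval from -0.30 to 0.02 and an edgeR adjusted p of 0.774, and Ntrk3 one of 0.17 ± 0.09, with an interval from -0.02 to 0.36 and an adjusted p of 0.774. Without the libraries over 1 CPM of Pmch, the Ntrk2 estimate was -0.04 and that of Ntrk3 0.13. Bdnf had -0.43 ± 0.40, with an interval from -1.27 to 0.40 and an edgeR adjusted p of 0.816. The Bdnf estimate was -0.80 without FS5, the library with the highest Bdnf, and -0.25 without FS2. Ntf3 at 0.15 ± 0.65, Ngfr at 0.10 ± 0.45 and Sort1 at -0.07 ± 0.15 had edgeR adjusted p-values of 0.958, 0.958 and 0.917. The median log2 fold change of the 6 genes was 0.018 and their median absolute change 0.144, against 0.006 and 0.104 over all genes.

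In males the estimates were smaller for 4 of the 6 genes, and again none passed. Between MS and MC, 0 of 6 were called by edgeR, against 0% of all genes, 0 of 6 had an unadjusted p under 0.05, against 9.67%, and 0 of 6 had groups that did not overlap, against 2.45%. Sort1 had a log2 fold change of -0.22 ± 0.15, with an interval from -0.52 to 0.09 and an edgeR adjusted p of 0.654. Ngfr had 0.38 ± 0.45, with an interval from -0.57 to 1.32 and an adjusted p of 0.809 by edgeR. The intervals of Ntrk2 (-0.11 to 0.21) and Ntrk3 (-0.15 to 0.23) around estimates of 0.05 and 0.04 were narrow, and those of Bdnf (-0.74 to 0.97, estimate 0.11) and Ntf3 (-1.38 to 1.46, estimate 0.04) wide. The median of the 6 genes was 0.046 and their median absolute change 0.079, against -0.010 and 0.115 over all genes.

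Taking the sexes jointly changed nothing in these calls. For the mean of the stress effects 0 of 6 genes were called, against 0% of all genes, and 0 of 6 had an unadjusted p under 0.05, against 7.71%, with the smallest edgeR adjusted p among them at 0.758 for Ntrk3 (0.10 ± 0.06). For the difference between the stress effects, female minus male, 0 of 6 were called, against 0%, and 0 of 6 had an unadjusted p under 0.05, against 8.26%. That difference was -0.19 ± 0.11 for Ntrk2 (edgeR adjusted p = 0.601), -0.54 ± 0.57 for Bdnf (0.741), 0.12 ± 0.13 for Ntrk3 (0.742), 0.15 ± 0.21 for Sort1 (0.800), -0.27 ± 0.64 for Ngfr (0.891) and 0.11 ± 0.94 for Ntf3 (0.975). The Wald test of DESeq2 called 0 of the 6 genes in each of these stress comparisons, and so did limma voom. Of all 14884 genes, DESeq2 called 24 for MS over MC and 29 for the mean of the stress effects. There limma voom called 683 (4.59%) for MS over MC and 0% in the other stress comparisons.

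The controls of both sexes show what differs without stress, and here Bdnf had the largest difference of the 6 genes. Its log2 fold change of MC over FC was -0.95 ± 0.40, with a 95% interval from -1.80 to -0.11, an unadjusted p of 0.0292 and an edgeR adjusted p of 0.217, so it did not pass over all genes. edgeR called 0 of 6, against 0.511% of all genes (76 genes), 1 of 6, Bdnf, had an unadjusted p under 0.05, against 19.2%, and 0 of 6 had groups that did not overlap, against 3.86%. DESeq2 gave Bdnf -0.96 (adjusted p = 0.136), and limma voom with quality weights called it at -1.32 (adjusted p = 0.0122), in a comparison where that method called 22.1% of all genes. Over 12 main and alternative settings that leave out no single library, the adjusted p ran from 0.0122 to 0.94. The upper end came without the libraries over 1 CPM of Pmch, all 3 of them in this pair of groups being FC, when the estimate was -0.67 and the adjusted p 0.94 by edgeR. Marker lists differed between these groups too. The summed level of 6 cholinergic markers was 126 to 164 CPM in MC (median 148) and 69 to 166 CPM in FC (median 101), and that of 10 subpallial GABA markers 1790 to 2360 CPM in MC (median 2100) and 1220 to 2080 CPM in FC (median 1460), both with the higher median where Bdnf was lower. Cholinergic sums, here and below, include Zic4, which made up most of the sum in FC1. Striatal markers summed to 2290 to 4350 CPM in MC (median 3300) and 304 to 2640 CPM in FC (median 1640), and endothelial and pericyte markers to 200 to 368 CPM in MC (median 338) and 193 to 221 CPM in FC (median 208). Thalamic markers summed to 139 to 453 CPM in MC (median 155) and 134 to 1110 CPM in FC (median 663), and oligodendrocyte markers to 3610 to 6880 CPM in MC (median 4890) and 5960 to 10100 CPM in FC (median 8650). Hypothalamic peptide markers summed to 5.03 to 187 CPM in MC (median 6.07) and 9.11 to 394 CPM in FC (median 184). With the difference between striatal and thalamic scores (mean log2 CPM of each list) as a covariate, the Bdnf estimate was -0.80 (edgeR adjusted p = 0.61). With the cortical excitatory score as a covariate it was -1.07 (edgeR adjusted p = 0.112). The part of the other lists in the Bdnf difference was not tested.

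The other genes differed less between control sexes. Ntrk3 had 0.17 ± 0.09 (edgeR adjusted p = 0.309), Ngfr 0.42 ± 0.45 (0.612), Sort1 0.15 ± 0.15 (0.568), Ntrk2 -0.03 ± 0.08 (0.827) and Ntf3 -0.29 ± 0.67 (0.832). Between MS and FS, edgeR called 0 of 6, against 0.047% of all genes (7 genes), 0 of 6 had an unadjusted p under 0.05, against 6.28%, and 0 of 6 had groups that did not overlap, against 0.773%. Ngfr had the largest estimate there, 0.70 ± 0.45, with an interval from -0.25 to 1.64 and an edgeR adjusted p of 0.822. Without FS5, the library with the lowest Ngfr, it was 0.43, and without the libraries over 1 CPM of Pmch it was 1.14, with adjusted p = 0.407 by edgeR. The summed cholinergic markers were 130 to 203 CPM in MS (median 180) and 76.2 to 185 CPM in FS (median 149), and their part in the Ngfr estimate was not tested. Ntrk2 had 0.15 ± 0.08 (adjusted p = 0.774, edgeR), Bdnf -0.41 ± 0.40 (0.879), Ntf3 -0.40 ± 0.67 (0.928), Ntrk3 0.05 ± 0.09 (0.943), and for Sort1 the estimate was 0.00 ± 0.15, with an interval from -0.31 to 0.31. Without FS5 the Bdnf estimate here was -0.04. The comparisons share their groups in pairs, so their estimates are not independent of each other.

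**Figure D2:**
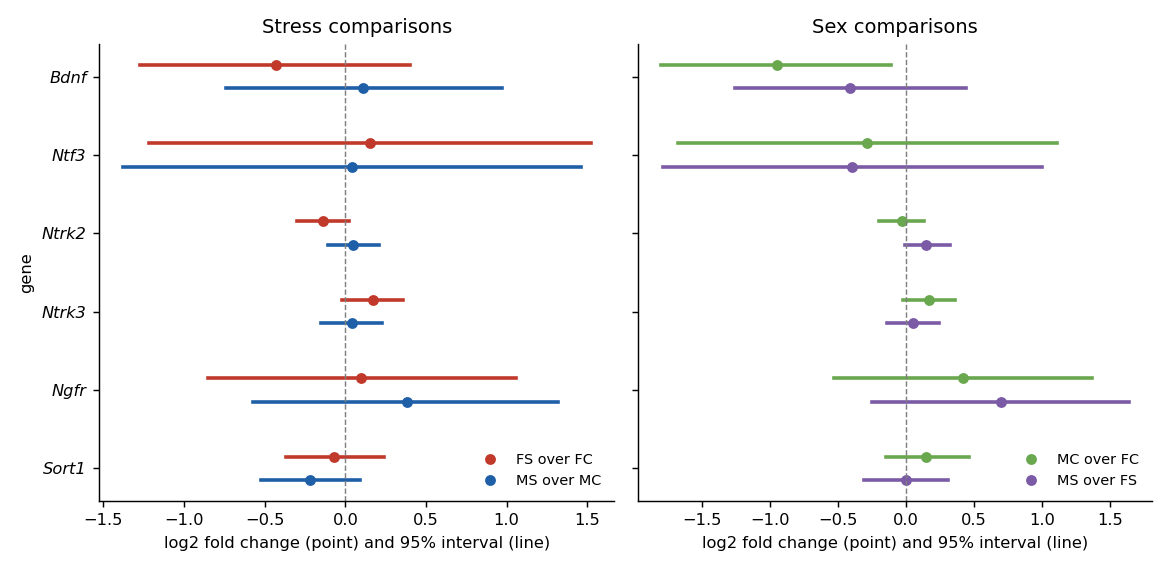
Log2 fold change (x axis, points) with its 95% interval (lines) from the edgeR fit for each gene (y axis), with stress in each sex in the left panel and sex in control and in susceptible mice in the right panel. Of these 24 intervals, the one for Bdnf of MC over FC, from -1.80 to -0.11, is the one that does not reach the dashed line at 0; those of Ntrk2 and Ntrk3 are the narrowest and those of Ntf3 the widest.

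Relatives of these genes were measured beside them. Ntf5, which encodes neurotrophin 4, another TrkB ligand, had 0 to 4 counts per library and was too low to be tested. None of the sortilin relatives Sorcs1, Sorcs2, Sorcs3 and Sorl1 passed in any of the 6 comparisons by edgeR.

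Around the 6 genes, 85 further genes of the pathway were listed, of which 83 were tested: other ligands and receptors, precursor cleavage, adaptors at Trk receptors, Ras, MAP kinase and PI3 kinase relays, partners of p75, transcription factors that act on Bdnf, and genes that BDNF induces in cultured neurons. Levels are means ± SD of 5 libraries. Between FS and FC, 47 had estimates above 0 and 36 below, with a median log2 fold change of 0.02, and edgeR called 0. An unadjusted p under 0.05 was reached by 1 of 83 (1.2%), against 5.85% of all genes. This was Lrig1, a membrane regulator of receptor tyrosine kinases, at 65.9 ± 21.5 CPM in FS against 89.1 ± 20.3 CPM in FC (log2 fold change -0.44 ± 0.20, edgeR adjusted p = 0.774). Among estimates below 0, the next smallest p-values were those of Rest, a repressor of neuronal genes, at 8.4 ± 1.06 CPM in FS and 9.64 ± 1.55 CPM in FC (-0.20 ± 0.11, edgeR adjusted p = 0.774), and of Dusp4, a MAP kinase phosphatase, at 13.3 ± 1.17 CPM in FS and 15.4 ± 2.92 CPM in FC (-0.21 ± 0.12, edgeR adjusted p = 0.774). Between MS and MC, 34 had estimates above 0 and 49 below, with a median of -0.05, and edgeR called 0, with 9 of 83 (10.8%) at an unadjusted p under 0.05, near the 9.67% of all genes. The smallest of these was Rhoa, a GTPase that p75 engages, at 109 ± 2.3 CPM in MS against 97 ± 1.45 CPM in MC (0.17 ± 0.04, edgeR adjusted p = 0.405). Furin, a protease that cleaves neurotrophin precursors, had 34.8 ± 2.16 CPM in MS and 40.8 ± 4.29 CPM in MC (-0.23 ± 0.08, edgeR adjusted p = 0.426). Sos1, which activates Ras (0.24 ± 0.09), Pik3ca, the catalytic subunit of PI3 kinase (0.14 ± 0.06), Rapgef1, which activates Rap1 (-0.25 ± 0.10), and Islr2, a membrane protein that binds Trk receptors (-0.77 ± 0.34), had edgeR adjusted p-values of 0.462 to 0.494. In this comparison DESeq2 called 1 of the pathway genes and 24 of all genes, and limma voom with quality weights called 4 (4.82%) of the pathway genes and 683 (4.59%) of all genes.

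The 13 genes that BDNF induces in cultured neurons are also induced by neuronal activity in general, and their estimates differed in sign between the sexes. Between FS and FC, 11 were above 0 and 2 below, with a median log2 fold change of 0.43 against 0.006 over all genes. Between MS and MC, 2 were above 0 and 11 below, with a median of -0.18 against -0.010 over all genes. None of the 13 was called by edgeR in either comparison, against 0% of all genes. None had an unadjusted p under 0.05, against 5.85% of all genes in females and 9.67% in males. Egr1, an immediate early transcription factor, was at 340 ± 195 CPM in FS and 199 ± 119 CPM in FC (0.77 ± 0.38), and at 207 ± 59.2 CPM in MS and 255 ± 49.8 CPM in MC (-0.30 ± 0.38). Egr2 had 16.1 ± 10.3 CPM in FS and 7.84 ± 6.15 CPM in FC (1.03 ± 0.52). Dusp4, also among the 13, was below 0 in both sexes (-0.21 ± 0.12 for FS over FC, -0.04 ± 0.12 for MS over MC). Npas4, an activity-dependent factor that binds Bdnf promoters, is on the list of transcription factors and not among the 13. It had 27.4 ± 7.85 CPM in FS and 19.1 ± 9.82 CPM in FC (0.51 ± 0.28). The difference of stress effects, female minus male, was 1.07 ± 0.54 for Egr1, 1.37 ± 0.74 for Egr2 and 0.94 ± 0.39 for Npas4, each with an edgeR adjusted p of 0.587. For Dusp4 it was -0.17 ± 0.18 (edgeR adjusted p = 0.741). Over the 13 genes the median of this difference was 0.68, with 10 above 0 and 3 below, and edgeR called 0, against 0% of all genes. An unadjusted p under 0.05 was reached by 1 of the 13, against 8.26% of all genes. Striatal markers shifted with the same signs as the medians of the 13 genes, with a median summed level of 2340 CPM in FS and 1640 CPM in FC, and of 2770 CPM in MS and 3300 CPM in MC. Cortical and hippocampal excitatory markers did so too, at medians of 230 CPM in FS, 190 CPM in FC, 149 CPM in MS and 372 CPM in MC. Other lists shifted with the reverse signs. Among them, oligodendrocyte medians were 6940 CPM in FS, 8650 CPM in FC, 6860 CPM in MS and 4890 CPM in MC. Those of hypothalamic peptide markers were 21.5 CPM in FS, 184 CPM in FC, 36.7 CPM in MS and 6.07 CPM in MC. The library with the most striatal RNA, FS5 at 5131 CPM, had the highest Egr1, 653 CPM, and the one with the least, FC1 at 304 CPM, had the lowest, 74.9 CPM. FS5 was also the highest for cortical markers, at 1138 CPM. MS5, the lowest of its group for striatal markers at 1172 CPM, also had the lowest Egr1 of its group, 115 CPM. Other libraries departed from this order: MC4, at 4351 CPM of striatal markers, had 261 CPM of Egr1, and FC5, at 2639 CPM, had 396 CPM. The part of striatal, cortical or other regional RNA in these estimates was not tested. Neuronal activity is known to induce these genes together, so their shared sign is not 13 separate observations.

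Between the control sexes, edgeR called 1 of 83 pathway genes (1.2%), against 0.511% of all genes. It was Rhoa, at 97 ± 1.45 CPM in MC against 117 ± 4.33 CPM in FC, a log2 fold change of -0.26 ± 0.04 with an edgeR adjusted p of 0.0109. The MC and FC libraries did not overlap, from 95.3 to 99 CPM in MC and from 112 to 123 CPM in FC. Between MS and FS it was at 109 ± 2.3 CPM in MS and 117 ± 5.36 CPM in FS (-0.10 ± 0.04, edgeR adjusted p = 0.774). This count of pathway genes was 0 when FC3, the libraries high in Ttr or those with Pmch were left out, and 0 with only MC and FC in the fit. It was 5 without FC5 and 2 without MC1. The same fits called 76 of all genes with every library, 6 without FC3, 458 without FC5 and 193 without MC1.

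Across all 20 libraries, the 6 genes were set beside 13 lists of marker genes for cell types and neighbouring regions, each list scored as its mean log2 CPM, with Pearson's r and a permutation test adjusted over the 78 relations. Of these, 11 passed, 3 of them for scores that fell into separate sets of libraries. Ngfr and Bdnf stood out against the same list in opposite directions, that of cholinergic neurons (Chat, Slc18a3, Slc5a7, Lhx8, Gbx1 and Zic4). Ngfr rose with the cholinergic score, with r = 0.817, Spearman's rho = 0.779, a permutation p of 0.00053 and an adjusted p of 0.00925, and r was 0.844 within groups. Without FS5 and FC1, the libraries farthest from the median score, r was 0.589, so the relation rested in part on them. Without the libraries over 100 CPM of Ttr, r was 0.866 in fewer libraries and the adjusted p 0.053. Bdnf fell with the score, with r = -0.730, rho = -0.817, a permutation p of 1e-05, the smallest these resamples can give, and an adjusted p of 0.00078. Its r was -0.717 without FS5 and FC1 and -0.658 within groups. Against each other Bdnf and Ngfr had r = -0.587, the largest absolute r among the 15 pairs of the 6 genes (rho = -0.559), with a permutation p of 0.00426 that did not pass when adjusted over the pairs (0.0639), and r = -0.488 without FS5 and MC3. The adjusted p of the other 14 pairs was 0.59 or more.

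**Figure D3:**
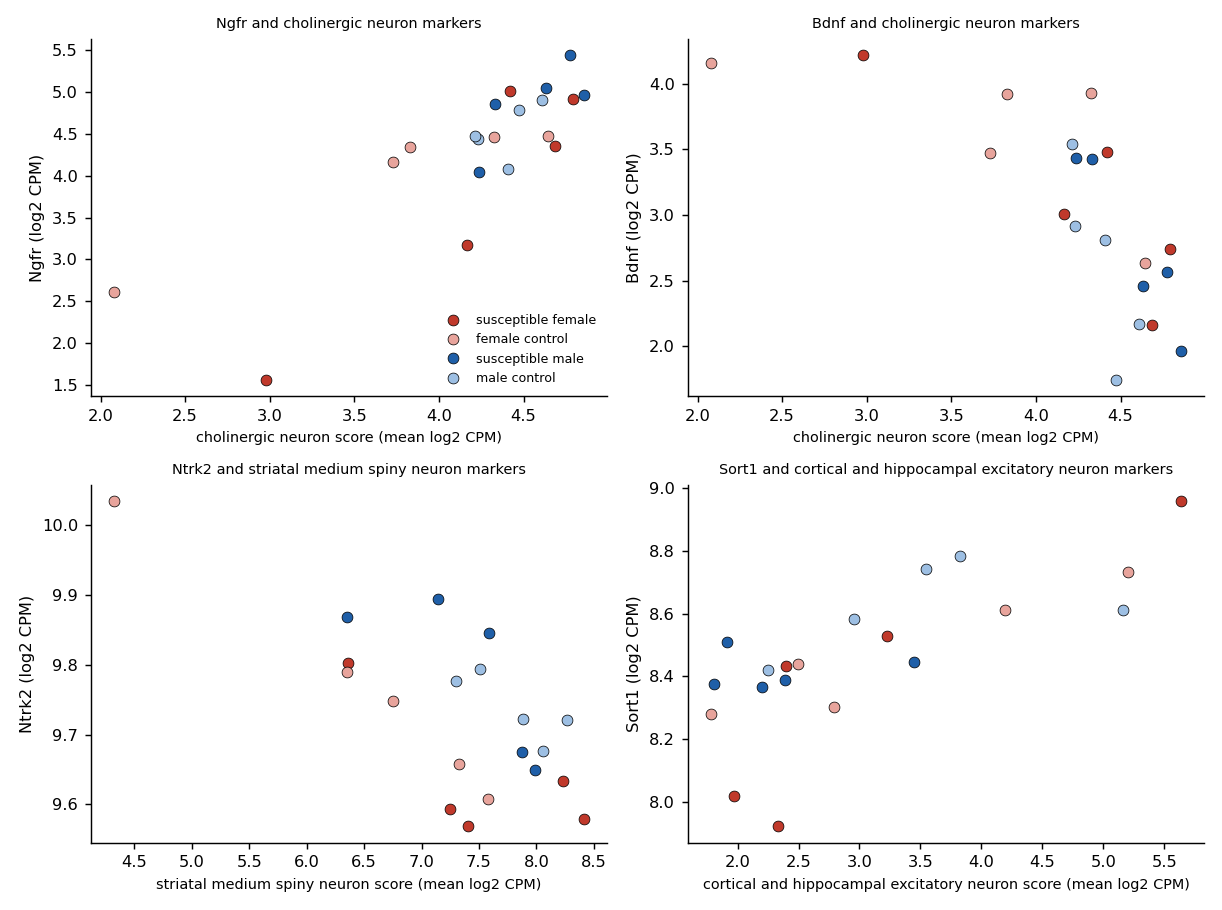
Log2 CPM of a gene (y axis) against the mean log2 CPM of a marker list (x axis) in the 20 libraries, coloured by group. Ngfr rises and Bdnf falls along the cholinergic score, where FS5 and FC1 lie far to the left; Ntrk2 falls along the striatal score, with FC1 apart at its low end; Sort1 is higher in the 3 libraries with cortical scores of 5.16 to 5.64 than in most of the others.

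In the 2 libraries with the least Ngfr, the summed cholinergic markers were lowest of their groups as well, at 76.2 CPM in FS5 and 69.0 CPM in FC1. In the next lowest for Ngfr, FS3, the sum was close to its group's median. There Chat, Slc18a3, Slc5a7, Lhx8 and Gbx1 were each below every other FS library except FS5. The rest of each sum is Zic4, the other gene of the list, so a sum does not show those genes alone. FS5 had 2.82 CPM of Ngfr, 13.7 CPM of Chat, which makes acetylcholine, and 0.939 CPM of Gbx1, a transcription factor gene of the list. FC1 had 5.96 CPM of Ngfr, 2.89 CPM of Chat and 1.48 CPM of Gbx1. It also had 2.21 CPM of Slc18a3, 7.32 CPM of Slc5a7 and 1.13 CPM of Lhx8, so most of its sum was Zic4. In FS5 Slc5a7 was at 35.1 CPM, so the similar sums do not mean similar levels of these genes. FS3, at 8.93 CPM of Ngfr, had 15.1 CPM of Chat, 7.90 CPM of Gbx1 and a summed cholinergic level of 147 CPM (FS median 149 CPM), and without it r was 0.848. At the other end, MS4 had 43.4 CPM of Ngfr, 38.0 CPM of Chat and 18.8 CPM of Gbx1. Chat still had 189 counts in FS5 and 51 counts in FC1, so cholinergic RNA was low there and not absent.

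**Figure D4:**
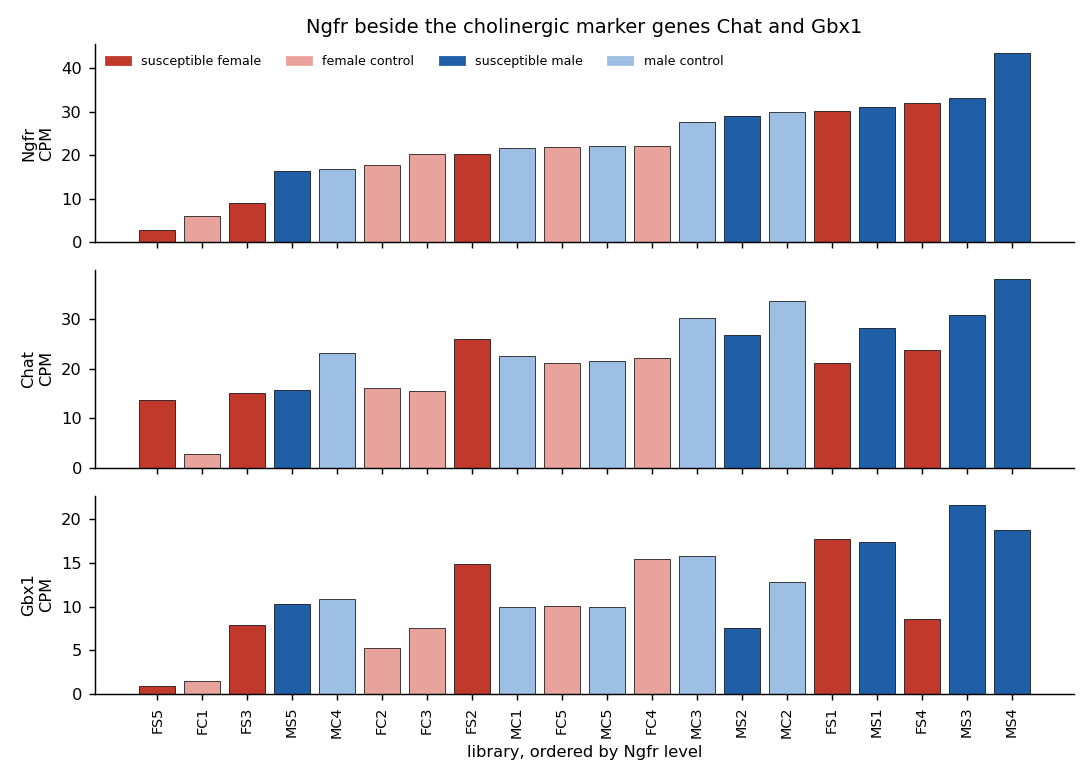
CPM (y axes, from 0) of Ngfr and of the cholinergic marker genes Chat and Gbx1 in each of the 20 libraries (x axis, ordered by Ngfr level, coloured by group). FS5 and FC1, at 2.82 and 5.96 CPM of Ngfr, are also the lowest for Gbx1, and MS4, the highest for Ngfr at 43.4 CPM, is also the highest for Chat.

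The score of subpallial GABA neurons gave the same pair of signs. Ngfr had r = 0.615 (rho = 0.639, permutation p = 0.0031, adjusted p = 0.0242, r = 0.590 without FC2 and FC1), and Bdnf had r = -0.701 (rho = -0.731, permutation p = 0.00083, adjusted p = 0.00925, r = -0.672 without FC2 and FC1). Neither held throughout: the Ngfr relation did not pass without FC1 (r = 0.539, adjusted p = 0.0948) or without the Ttr libraries (r = 0.782, adjusted p = 0.0543), and the Bdnf relation did not pass without the Pmch libraries (r = -0.614, adjusted p = 0.108). Whether these relations follow the number of such neurons in a sample or their RNA per cell cannot be told apart.

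Ntrk2 moved with markers of regions that border the BNST. It fell with the score of striatal medium spiny neurons (r = -0.739, rho = -0.588, permutation p = 0.00036, adjusted p = 0.00925). Without MS5 and FC1 that r was -0.477, and within groups it was -0.875. It rose with the score of hypothalamic peptide neurons (r = 0.665, rho = 0.528, permutation p = 0.00164, adjusted p = 0.0142), with r = 0.542 without FC1 and FC2. Without the libraries over 1 CPM of Pmch, neither relation passed, with r = -0.336 for the striatal and 0.283 for the hypothalamic score (adjusted p = 0.496 and 0.584). Neither passed without FC1 (adjusted p = 0.0931 and 0.11), and the hypothalamic relation did not pass without the Ttr libraries (r = 0.724, adjusted p = 0.0543). The summed striatal markers were 1150 to 5130 CPM in FS (median 2340) and 304 to 2640 CPM in FC (median 1640), and with the difference between striatal and thalamic scores as a covariate the FS over FC estimate of Ntrk2 was -0.05 and that of Ntrk3 0.07.

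Ntrk3 fell with the astrocyte score (r = -0.705, rho = -0.774, permutation p = 0.00061, adjusted p = 0.00925), with r = -0.695 without FC1 and FC3 and -0.561 within groups. This did not pass without the Ttr libraries (r = -0.645, adjusted p = 0.0627) or without the Pmch libraries (r = -0.583, adjusted p = 0.13). For Ntrk3 the relations with choroid plexus and thalamic scores also passed over all libraries, but each score fell into separate sets, and within them none passed. With the choroid plexus score r was -0.445 in 14 libraries of low score (permutation p = 0.112) and -0.414 in 6 of high score (exact permutation p = 0.367). With the thalamic score r was -0.508 in 13 libraries of low score (permutation p = 0.0656) and -0.622 in 7 of high score (exact permutation p = 0.138).

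Sort1 rose with the score of cortical and hippocampal excitatory neurons over all libraries (r = 0.744), but this score fell into separate sets. FS5, FC5 and MC5 had scores of 5.16 to 5.64, apart from the other 17 libraries at 1.78 to 4.19, and held 497, 425 and 391 CPM of Sort1. MC4 and MC2, outside this set of high scores, held 441 and 428 CPM. Within the 17 libraries r was 0.647 (rho = 0.738, permutation p = 0.00452, adjusted p = 0.136 over 30 such relations within sets, r = 0.532 without the farthest pair of libraries). Sort1 had r = -0.587 with the oligodendrocyte precursor score (rho = -0.549, permutation p = 0.00615, adjusted p = 0.0436, r = -0.458 without FS5 and MC5), which did not pass by Spearman's rho (adjusted p = 0.0643). By r it did not pass without the Pmch libraries (adjusted p = 0.0729), nor without any 1 of FS2, FS5, FC1, FC4, FC5, MS1, MS4, MS5, MC2 and MC4 (adjusted p = 0.0522 to 0.105). Ntf3 passed with none of the 13 lists.

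For each gene, the genes most like it over the 20 libraries were taken by Pearson's r of log2 CPM among 14044 candidates of at least 1 CPM, which is a description and carries no test. Nearest to Bdnf were Mapk11, a p38 MAP kinase (r = 0.913), Pak1, a kinase of the cytoskeleton (0.885), and Nsun2, an RNA methyltransferase (0.868). Nearest to Ngfr was Gbx1 (r = 0.884), which is also on the cholinergic list, then Ebf4 (0.850) and Tmem74b (0.848), and without the 2 farthest libraries these r were 0.562, 0.634 and 0.701. Nearest to Ntrk2 were Arhgap35 (r = 0.855), Phlpp2 (0.852) and Mfsd6 (0.839), and to Ntrk3 Sesn3 (0.884), Fgf14 (0.882) and Virma (0.863). Nearest to Sort1 were Pcnx2 (r = 0.947), Arhgap32 (0.940) and Bsn (0.936), the last of which encodes a scaffold of the presynaptic active zone. Nearest to Ntf3, where counting error is large, were C130074G19Rik (0.889), Arhgap25 (0.866) and Matn2 (0.853). As the highest of many, these r are larger than a repeat would give, and all genes of a library share its dissection and depth.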

How the data were processed

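Read counts per gene from 20 mouse BNST libraries were used as deposited: per the submitters' processing notes the authors used HISAT2, featureCounts and the mm10 assembly, and the counts are whole numbers with no normalization. The annotation, the versions of these tools, whether counting used the strand, and the treatment of multiply mapped reads were not given in the sources used, so reads of overlapping and antisense genes cannot be separated. Groups and replicate numbers came from the sample titles. Of 19214 identifiers, 19206 were matched to GENCODE mouse release 21 on GRCm38. Depth was 14637636 to 17862840 counts per library.

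Counts were scaled by TMM, reduced by filterByExpr to 14884 genes, and modelled with 4 group means over the 20 libraries in edgeR 4.0.16 (robust quasi-likelihood, R 4.3.3). The p-values were adjusted by Benjamini and Hochberg over all tested genes, with a threshold of 0.05. SEs were derived as the size of the log2 fold change divided by the root of F. CPM are TMM-scaled, and log2 CPM carry a prior count of 2. Relations across libraries used 2-sided permutation tests of 100000 resamples, or exact ones in sets under 10 libraries. A score was taken as split where a gap of at least 20% of its range left 3 or more libraries on each side. The code was tested on simulated counts.

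The 6 genes and all lists were chosen with earlier results of these data known. Besides the 6 genes, the text names pathway genes by rule, the 3 smallest p-values in each direction in each stress comparison and any pathway gene called, then the 3 genes most like each of the 6, and relatives of the 6 genes, some of which are not reported here. Ttr, Pmch, GABA genes and the genes of the cholinergic list are named as markers. Same-numbered libraries of different groups did not deviate together as a rule (median correlation 0.061), though some did, so replicate numbers were not used as pairs. In 40 pairs of libraries within groups none agreed within sampling noise, the smallest chi-square per degree of freedom being 5.98. Alternatives were DESeq2 1.42.0 (its size factors and its Wald test), limma 3.58.1 voom with quality weights, other count filters, the replicate block, region scores as covariates, the compared groups alone, and leaving out libraries. The removal of group means from the correlations was chosen after seeing the data.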

Additional observations from a re-analysis of the deposited data

Results flagged for a closer look

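In groups of 5 libraries, a library was picked out where its gap to the nearest other library, over the range of its group, passed Dixon's 95% value of 0.71. This held in 6 of 72 groups examined, where chance gives about 1 in 20, or 3.6. Ngfr was at 5.96 CPM in FC1, against 17.8 to 22.1 CPM in the other FC libraries. Ntrk2 was at 893 CPM in FS4, against 759 to 794 CPM in the other FS libraries. Ntrk3 was at 250 CPM in MC4, against 199 to 213 CPM in the other MC libraries. Among pathway genes, Islr2 was at 84 CPM and Npas4 at 36.2 CPM in FC5, against 24.0 to 38.7 CPM and 11.5 to 18.1 CPM in the other FC libraries, and Sos1 was at 110 CPM in MC1, against 93.5 to 98.2 CPM in the other MC libraries.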

How the results depend on the processing

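Under 184 alternatives for each of the 6 genes, 1046 of 1104 estimates kept direction and call, 57 changed sign and 1 became a call. No gene of the 6 was called in the main fit, so keeping the call meant staying uncalled. Leaving out a library of a group not compared can hardly move an estimate, so part of the 1046 was fixed in advance. Of the 57, 56 belonged to estimates within 1 SE of 0, and 31 were of Ntf3, where 2 to 41 counts limit every value. The call was Bdnf of MC over FC by limma voom with quality weights, the 1 of 6 genes it called there, where it called 3294 (22.1%) of all genes.

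Changed signs of log2 fold changes were as follows. For FS over FC, Ngfr was -0.24 by limma voom, -0.04 with the replicate block, -0.50 without the Pmch libraries, -0.04 with the cortical and -0.03 with the striatal minus thalamic covariate; Ntf3 was -0.07 by limma voom, -0.41 without the Ttr libraries and -0.23 with the striatal covariate; Sort1 was 0.09 without the Ttr libraries. For MS over MC, Bdnf was -0.13 without the Ttr and -0.06 without the Pmch libraries, Ntf3 -0.06 with the replicate block and -0.09 without the Pmch libraries, and Ntrk2 -0.01 with the cortical covariate. For the mean stress effect, Ntf3 was -0.02 with the replicate block, -0.18 without the Ttr libraries and -0.01 with the striatal covariate. For female minus male, Ntf3 was -0.17 by limma voom, -0.45 without the Ttr libraries, and -0.33 and -0.44 with the cortical and striatal covariates, which gave Sort1 -0.03 and -0.01. For MC over FC, Ntrk2 was 0.10 without the Pmch libraries and 0.08 with the striatal covariate, which gave Sort1 -0.01.

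Leaving out 1 library at a time changed the sign of some estimates, whose ranges were, for FS over FC, -0.18 to 0.37 for Ngfr, -0.39 to 0.44 for Ntf3 and -0.24 to 0.04 for Sort1; for MS over MC, -0.07 to 0.40 for Bdnf and -0.24 to 0.37 for Ntf3; for the mean, -0.18 to 0.26 for Ntf3; for female minus male, -0.43 to 0.40 for Ntf3 and -0.03 to 0.25 for Sort1; for MC over FC, -0.08 to 0.04 for Ntrk2; for MS over FS, -0.69 to 0.14 for Ntf3 and -0.01 to 0.11 for Ntrk3. Without a change of sign, Bdnf ran from -0.80 to -0.25 for FS over FC, -0.92 to -0.36 for female minus male, -0.34 to -0.02 for the mean and -0.59 to -0.04 for MS over FS, Ngfr from -0.55 to -0.01 for female minus male, 0.10 to 0.38 for the mean, 0.20 to 0.52 for MC over FC and 0.43 to 0.98 for MS over FS, and Ntrk2 from -0.18 to -0.07 for FS over FC. It gave 0 to 2 genes called for FS over FC, 6 to 458 for MC over FC (0 to 5 of them pathway genes), 6 to 20 for MS over FS, and 9 to 19 marker relations.

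The 76 genes called for MC over FC became 455 with DESeq2, 3294 with limma voom, 38 with no filter, 5 without the Ttr and 5 without the Pmch libraries, 378 and 13 with the cortical and striatal covariates, and 19 with the compared groups alone. The 1 pathway gene became 3 with DESeq2 and 21 with limma voom, which is 25.3% of 83 against 22.1% of all genes. It became 2 with the replicate block, 0 without Ttr, 0 without Pmch, 2 with the cortical covariate and 0 alone. For MS over MC, DESeq2 called 24 genes and limma voom 683 (1 and 4 of the pathway), and for the mean DESeq2 called 29. For MS over FS the 7 genes became 15 with DESeq2, 4 with the replicate block, 4 without the Ttr and 13 without the Pmch libraries, and 4 alone. Marker relations called were 7 without the Ttr and 6 without the Pmch libraries, and 17 with group means removed; of 25 alternatives, Bdnf with the cholinergic score passed in 25, Ngfr with it in 24 and Sort1 with the precursor score in 14. The causes were not tested. Replicate numbers did not pair the libraries as a rule: over 30 same-numbered pairs the correlation of deviations ran from -0.58 to 0.642, with a median of 0.061, and 11 were over 0.1. FC5 with FS5 (0.642) and FC1 with MC1 (0.501) were the highest, and FC5 with MS5 (-0.58) the lowest. In 14 of 60 cases a library correlated best with its own number among the 5 libraries of another group.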
